A study of Mus musculus with 10 samples.

Results

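Matrix metalloproteinases and their tissue inhibitors were examined in mouse peritoneum, as 10 genes taken by symbol from the 21877 of the deposited read-count table. The 6 metalloproteinase genes were Mmp2, Mmp14, Mmp3, Mmp9, Mmp12 and Mmp19, and the 4 inhibitor genes were Timp1, Timp2, Timp3 and Timp4. All 10 were found and all 10 passed the filter on low counts. The tissue came from male C57BL/6 mice with Mr1 deleted (Mr1-/-) or present (Mr1+/+), which were given 4.25% peritoneal dialysis (PD) fluid or PBS into the peritoneal cavity over 6 weeks. Mr1 displays vitamin B metabolites of microbes to mucosal-associated invariant T cells, and PD fluid is the glucose-based solution used for dialysis through the peritoneum. The libraries were 2 of Mr1-/- PD fluid, 2 of Mr1-/- PBS, 3 of Mr1+/+ PD fluid and 3 of Mr1+/+ PBS.

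Matrix metalloproteinases are zinc-dependent enzymes made as inactive precursors, which cut collagens, elastin, proteoglycans and signalling proteins outside the cell once a propeptide is removed. The tissue inhibitors of metalloproteinases (Timps) bind the active site of these enzymes and block it, and Timp2 also brings the Mmp2 precursor to the membrane-bound Mmp14, which activates it. In the peritoneum under dialysis, these genes are studied because the submesothelial layer gains matrix and vessels, processes that involve matrix turnover. Transcript levels say nothing of how much of each enzyme is active.

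Promoter sequences are shown for 4 genes that span the range of responses described below. Mmp12 and Timp1 had the largest fold changes after PD fluid in Mr1+/+, Mmp14 had the smallest, and Mmp3 had the largest standard error (SE) of the 3 genes that did not pass the test. The sequences are the 250 bases before a RefSeq start (build GRCm38.p6, the same assembly as mm10), read 5′ to 3′ on the gene's strand. Capitals mark matches on either strand to TGANTCA (the AP-1 motif, where N is any base), AGGAAG (an Ets motif) or GGGCGG (the GC box).
Mmp12, start within the gene, chr9:7347124-7347373, plus strand: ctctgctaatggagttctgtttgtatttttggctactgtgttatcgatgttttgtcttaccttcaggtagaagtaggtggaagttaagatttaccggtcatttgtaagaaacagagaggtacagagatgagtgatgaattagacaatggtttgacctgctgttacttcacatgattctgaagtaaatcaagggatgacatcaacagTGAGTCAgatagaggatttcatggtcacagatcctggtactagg
Timp1, chrX:20869916-20870165, plus strand: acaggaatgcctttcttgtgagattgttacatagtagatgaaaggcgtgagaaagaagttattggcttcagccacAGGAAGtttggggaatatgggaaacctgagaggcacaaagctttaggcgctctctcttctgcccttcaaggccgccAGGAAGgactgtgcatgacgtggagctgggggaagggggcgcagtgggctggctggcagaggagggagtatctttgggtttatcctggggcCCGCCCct
Mmp3, chr9:7445572-7445821, plus strand: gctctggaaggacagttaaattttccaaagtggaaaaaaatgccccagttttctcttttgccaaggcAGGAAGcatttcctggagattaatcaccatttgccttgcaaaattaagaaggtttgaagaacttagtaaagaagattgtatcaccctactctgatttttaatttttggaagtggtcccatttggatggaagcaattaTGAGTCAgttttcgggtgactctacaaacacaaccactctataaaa
Mmp14, chr14:54431348-54431597, plus strand: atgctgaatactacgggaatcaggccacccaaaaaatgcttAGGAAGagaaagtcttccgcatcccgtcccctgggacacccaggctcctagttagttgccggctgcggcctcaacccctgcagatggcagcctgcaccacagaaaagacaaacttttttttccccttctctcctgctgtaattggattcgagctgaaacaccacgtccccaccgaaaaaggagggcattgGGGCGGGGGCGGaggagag
The letters TGAGTCA began 44 bases before this Mmp12 start and 46 bases before the Mmp3 start. The other Mmp12 start, further upstream, had an Ets match and no AP-1 match. Windows were found for 7 of the 10 genes, 8 windows in all, and the windows of Timp1, Timp2, Timp3, Timp4 and Mmp14 held no AP-1 letters. Over 32851 windows of this length in the table, 6.75% held TGANTCA, 29.5% held AGGAAG and 32.7% held GGGCGG. The GC content was 39.6% and 40.0% in the Mmp12 windows and 37.6% in the Mmp3 window. It was 68.0% for Timp2 and 65.6% for Timp3, against a median of 52.4% over all windows. Of the 250 bases, 203 in the Timp2 window and 40 in the Timp3 window lie in GENCODE M21 exons of the same gene. In the upstream Mmp12 window 16 bases do. Mmp2, Mmp9 and Mmp19 are named only. A match is a description of letters, not of binding.

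The libraries held 14145635 to 16335799 counts each. Replicates 1 and 2 of Mr1-/- PD fluid and replicates 1 and 2 of Mr1+/+ PBS were nearly identical, with a chi-square per gene of 1.74 and 2.23, against 18.6 to 118 for the other 6 pairs within groups. Each such pair was summed into a single sample. The tests thus used 8 samples: 1 of Mr1-/- PD fluid, 2 of Mr1-/- PBS, 3 of Mr1+/+ PD fluid and 2 of Mr1+/+ PBS. The pairs were above counting noise, so that they may also be close replicates, and results with the 10 libraries kept apart are given where they differ. All such results understate the spread if a near-identical pair is 1 sample. The labels tie no library to an animal, so the p-values reflect variation among the libraries alone, part of which may come from their preparation. The Mr1 gene itself had 29 to 39 counts per library in Mr1-/-, against 324 to 524 in Mr1+/+. The 7 mesothelial markers summed to 62.0 to 421 CPM (counts scaled to a fixed library size) in the samples, and none was at 0 in any group. The highest sum, in Mr1+/+ PBS replicate 3, included 341 CPM of Krt19, a keratin that intestinal and ductal epithelium also makes, while Upk3b was at 36.0 CPM there and at 26 to 184 CPM in the other samples. Mr1+/+ PBS replicate 3 stood apart, with 7 intestinal epithelial markers summing to 1900 CPM against 19.8 to 32.3 CPM in the other samples, and 7 pancreatic acinar markers at 25400 CPM against 140 to 5110 CPM.

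After PD fluid in Mr1+/+ mice, 7 of the 10 genes rose and none fell (edgeR quasi-likelihood test, Benjamini-Hochberg adjusted p under 0.05). They were the gelatinases Mmp2 and Mmp9, the elastase Mmp12, Mmp19, and the inhibitors Timp1, Timp2 and Timp3. Over all 15385 tested genes, 8.49% were called higher and 6.37% lower, 14.9% in all. At an unadjusted p under 0.05 there were 9 of the 10, all but Mmp3, against 34.1% of all tested genes. The median log2 fold change of the 10 genes was 1.40, against -0.057 over all tested genes. In 9 of the 10, every PD fluid sample was above every PBS sample, an arrangement that 25% of all tested genes showed. The reverse arrangement, seen in none of the 10, was shown by 25.6%. All 10 log2 fold changes were above 0, as were 46.1% of those of all tested genes. In this bulk tissue, a change in the number of cells that make a transcript cannot be told apart from a change per cell. All levels below are CPM scaled by TMM library sizes, a scaling that corrects for differences in composition between libraries. Gene positions are those of GENCODE M21 on GRCm38.

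The gelatinases cut denatured collagen and the collagen IV of basement membranes. Mmp2 (chromosome 8, 92827291 to 92853420, plus strand) had 91.3, 169 and 162 CPM in the Mr1+/+ PD fluid samples, against 56.4 and 58.1 CPM in the Mr1+/+ PBS samples. Its log2 fold change was 1.30 (SE 0.27, adjusted p = 0.0235), a 2.46-fold rise, with replicate 1 the lowest of the PD fluid samples and no overlap between the groups. Mmp9 (chromosome 2, 164940780 to 164955850, plus strand) is made largely by leukocytes. It had 24.4, 51.4 and 50.5 CPM in the PD fluid samples, against 14.2 and 15.1 CPM in the PBS samples. It rose 2.88-fold, a log2 fold change of 1.52 (SE 0.32, adjusted p = 0.0239), and replicate 1 was again the lowest of the PD fluid samples. Mmp14 (chromosome 14, 54431612 to 54445364, plus strand), the membrane-bound collagenase that activates Mmp2, had 155, 184.5 and 182 CPM in the PD fluid samples, against 143 and 116 CPM in the PBS samples. The groups did not overlap, but its log2 fold change of 0.43 (SE 0.16) did not pass (adjusted p = 0.0965). With the 10 libraries kept apart it passed, at 0.38 (adjusted p = 0.0258). Without Mr1+/+ PBS replicate 3 its log2 fold change was 0.28.

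Mmp12 and Mmp3 lie in the cluster of metalloproteinase genes on chromosome 9, which holds 9 protein-coding Mmp genes in the GENCODE M21 annotation. Mmp12 (7344381 to 7369499, plus strand), the elastase made chiefly by macrophages, had 1.92, 5.43 and 7.39 CPM in the PD fluid samples, against 0.308 and 0.421 CPM in the PBS samples. It rose 13.5-fold (log2 fold change 3.76, SE 0.68, adjusted p = 0.0160), the largest fold change of the 10. It was also the least abundant, with 31, 81 and 114 counts in the PD fluid libraries and 2, 8 and 6 counts in the PBS libraries, so that the size of its rise rests on few reads. Mmp3 (7445822 to 7455975, plus strand), or stromelysin 1, cuts proteoglycans and activates other Mmp precursors. It had 7.81, 27.2 and 31.0 CPM in the PD fluid samples, against 15.9 and 8.003 CPM in the PBS samples. PD fluid replicate 1 was below both PBS samples, and the log2 fold change of 0.87 (SE 0.66) did not pass (adjusted p = 0.394). Mmp19 (chromosome 10, 128790910 to 128800824, plus strand) acts on basement membrane proteins. It had 35.8, 52.7 and 48.1 CPM in the PD fluid samples, against 12.8 and 14.4 CPM in the PBS samples. It rose 3.35-fold, a log2 fold change of 1.74 (SE 0.24), with the smallest adjusted p of the 10 (0.0124).

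Timp1 (chromosome X, 20870166 to 20874735, plus strand), the inducible inhibitor, had 3.16, 11.1 and 13.0 CPM in the PD fluid samples, against 1.32 and 0.632 CPM in the PBS samples. It rose 8.98-fold (log2 fold change 3.17, SE 0.73, adjusted p = 0.0305), and its PD fluid libraries had 51, 165 and 200 counts. When the PBS sample with intestinal transcripts, replicate 3, was left out, its log2 fold change was 2.77 (adjusted p = 0.0717). Timp2 (chromosome 11, 118301069 to 118355740, minus strand), the constitutive inhibitor that also takes part in Mmp2 activation, had 649.8, 784 and 689 CPM in the PD fluid samples, against 418 and 369 CPM in the PBS samples. It rose 1.80-fold (log2 fold change 0.85, SE 0.16, adjusted p = 0.0175). Its lowest PD fluid sample was well above its highest PBS sample. Timp3 (chromosome 10, 86300372 to 86349506, plus strand), the inhibitor that stays bound to the matrix, had 327.5, 334 and 245 CPM in the PD fluid samples, against 156 and 209 CPM in the PBS samples. It rose 1.66-fold (log2 fold change 0.73, SE 0.20, adjusted p = 0.0427). It no longer passed without PD fluid replicate 1 (0.67, adjusted p = 0.0852) or without Mr1-/- PBS replicate 1 or 2, which share the estimate of spread (adjusted p = 0.0593 and 0.0582). Timp4 (chromosome 6, 115241892 to 115252205, minus strand), an inhibitor known from heart and fat tissue, had 96.6, 44.5 and 55.2 CPM in the PD fluid samples, against 21.4 and 25.1 CPM in the PBS samples. All 3 PD fluid samples were above both PBS samples, with replicate 1 the highest, and its log2 fold change of 1.49 (SE 0.41) had an adjusted p of 0.0546. With the 10 libraries kept apart Timp4 passed, at 1.53 (adjusted p = 0.00494), as it did with only the groups compared, at 1.49 (adjusted p = 0.0338). Without PD fluid replicate 1, 2 or 3 it did not pass, at 1.10, 1.725 and 1.60 (adjusted p = 0.062, 0.0654 and 0.134). It passed without either Mr1-/- PBS replicate (adjusted p = 0.0435 in both fits).

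**Figure D1:**
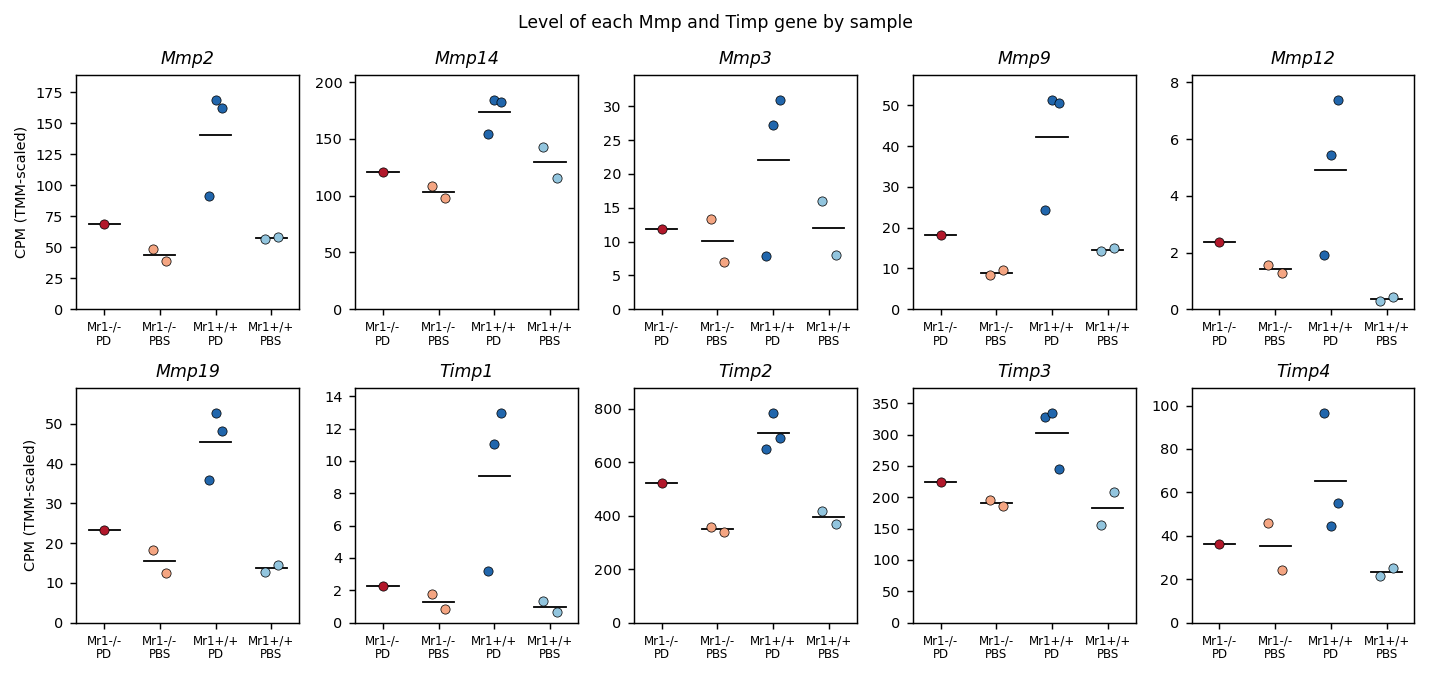
Level of each gene in each of the 8 samples, in TMM-scaled CPM on axes that start at 0; points are samples, and bars are group means. In Mr1+/+, the PD fluid samples lie above the PBS samples for 9 genes and overlap them for Mmp3, while replicate 1 (the leftmost point) is the lowest PD fluid sample for Mmp2, Mmp14, Mmp3, Mmp9, Mmp12, Mmp19, Timp1 and Timp2 and the highest for Timp4.

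More of these calls were lost without PD fluid replicate 2 or 3 than without replicate 1. The fits without replicate 2 or 3 also called far fewer of all tested genes. A lost call was not always a smaller rise. Without replicate 3 the log2 fold change of Timp3 was 0.86, against 0.73 with all samples. Without replicate 1, 6 of the 7 genes still passed, all but Timp3, among 2151 genes in all. Without Mr1+/+ PD fluid replicate 3, 0 of the 10 genes and 0 of 15356 tested genes passed in edgeR (8 and 3601 at an unadjusted p under 0.05). Without replicate 2, Mmp19 alone passed, among 339 genes in all. Without both libraries of the near-identical Mr1+/+ PBS pair, Mmp12, Mmp19 and Timp2 passed, among 1525 genes in all (9.93%). That fit has replicate 3, the library with the highest intestinal and pancreatic marker sums, as its only Mr1+/+ PBS sample. The spread of that sample is assumed to be that of the other groups. In every one of these fits the log2 fold change of all 10 genes was above 0, and those of Mmp19 were 1.65 to 1.89 when single libraries were left out. DESeq2 called 8 of the 10, Timp4 in addition, and 25.0% of all tested genes.

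**Figure D2:**
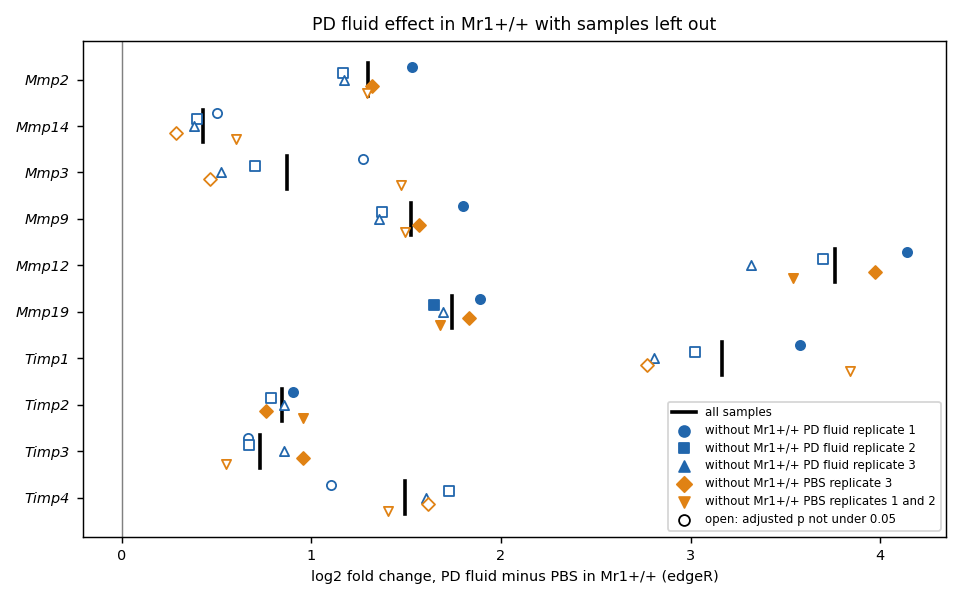
Log2 fold change of each gene for PD fluid minus PBS in Mr1+/+ with all samples (black bar) and with single samples left out (symbols), where filled symbols have an edgeR adjusted p under 0.05. Without PD fluid replicate 3 every symbol is open, while the values of Timp2 and Mmp19 stay within 0.76 to 0.91 and 1.65 to 1.89 when single libraries are left out.

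The PD fluid replicates of Mr1+/+ did not vary alike across the genes. The mean of replicates 2 and 3 was 3.80 times that of replicate 1 for Timp1, 3.73 times for Mmp3, 3.34 times for Mmp12, 2.09 times for Mmp9 and 1.81 times for Mmp2. For Mmp14, Timp2 and Mmp19 the ratio was 1.13 to 1.41. Timp3 and Timp4 went the other way, with replicate 1 at 1.13 and 1.94 times that mean. Replicate 1 also differed in cell type markers. The 12 neutrophil markers summed to 47.7 CPM in replicate 1 and to 141 and 164 CPM in replicates 2 and 3, and the 7 mesothelial markers to 416 CPM in replicate 1 and to 159 and 164 CPM in the others. The 13 macrophage markers summed to 3030, 3810 and 4120 CPM in replicates 1, 2 and 3, and the 6 erythroid markers to 240, 84.7 and 111 CPM. The largest difference was in the 7 pancreatic acinar markers, which summed to 140 CPM in replicate 1 and to 3160 and 3760 CPM in replicates 2 and 3. The part of these cells in the spread of the Mmp and Timp genes was not tested.

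To compare levels between genes, CPM were divided by the length of all annotated exons of the gene in kb. On that scale Timp2 was the most abundant of the 10 in all 4 groups, and Mmp12 the least. Timp2 was at 134 CPM per kb in the Mr1-/- PD fluid sample, 89.5 ± 3.72 (SD, n = 2) in Mr1-/- PBS, 182 ± 17.7 (SD, n = 3) in Mr1+/+ PD fluid and 100.9 ± 8.94 (SD, n = 2) in Mr1+/+ PBS. Timp3, Mmp14 and Mmp2 came next, at 37.1 ± 6.14, 29.2 ± 2.78 and 41.8 ± 12.8 CPM per kb in Mr1+/+ PD fluid and 22.4 ± 4.59, 21.7 ± 3.22 and 16.98 ± 0.347 CPM per kb in Mr1+/+ PBS. Their order is not settled: Timp3 and Mmp14 overlapped in Mr1+/+ PBS, and with the longest transcript as the length Mmp14 was above Mmp2 in Mr1+/+ PD fluid, at 53.7 against 45.7 CPM per kb. Mmp19, Mmp3, Mmp9, Timp4 and Timp1 lay within 10.2 to 12.9 CPM per kb in Mr1+/+ PD fluid, with SDs of 2.47 to 6.91 and samples that overlapped. In Mr1+/+ PBS they spread over 1.10 to 6.65 CPM per kb, with Timp1 the lowest of the 5.

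Summed on this scale, the 6 Mmp genes stood at 74.7, 126 and 125 CPM per kb in the Mr1+/+ PD fluid samples, against 57.2 and 49.5 in the Mr1+/+ PBS samples. The 4 Timp genes summed to 227, 262 and 231 CPM per kb in PD fluid, against 131.5 and 125 in PBS. The quotient of the Timp sum to the Mmp sum was 3.04, 2.07 and 1.85 in PD fluid, against 2.30 and 2.53 in PBS. The groups overlapped, also with the longest transcript as the length (2.65, 1.89 and 1.66 in PD fluid, against 1.90 and 2.19 in PBS). In both, replicate 1 had the highest and replicate 3 the lowest of the 5 samples. In Mr1-/- it was 2.87 in the PD fluid sample, against 2.64 and 2.99 in PBS. Timp2 made up 73.1% to 81.5% of the Timp sum in all 8 samples. Timp1 made up 1.57%, 4.75% and 6.32% of it in the Mr1+/+ PD fluid samples, against 1.13% and 0.568% in the PBS samples. Within the Mmp sum, Mmp14 held 34.8%, 24.5% and 24.5% in Mr1+/+ PD fluid, against 41.9% and 39.2% in PBS, while Mmp2 held 36.3%, 39.7% and 38.5%, against 29.2% and 34.8%. The shares were taken only with the length of all annotated exons, and they depend on it. With the longest transcript, Mmp14 was above Mmp2 in Mr1+/+ PD fluid, at 53.7 against 45.7 CPM per kb. These sums and shares are descriptions, with no test.

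**Figure D3:**
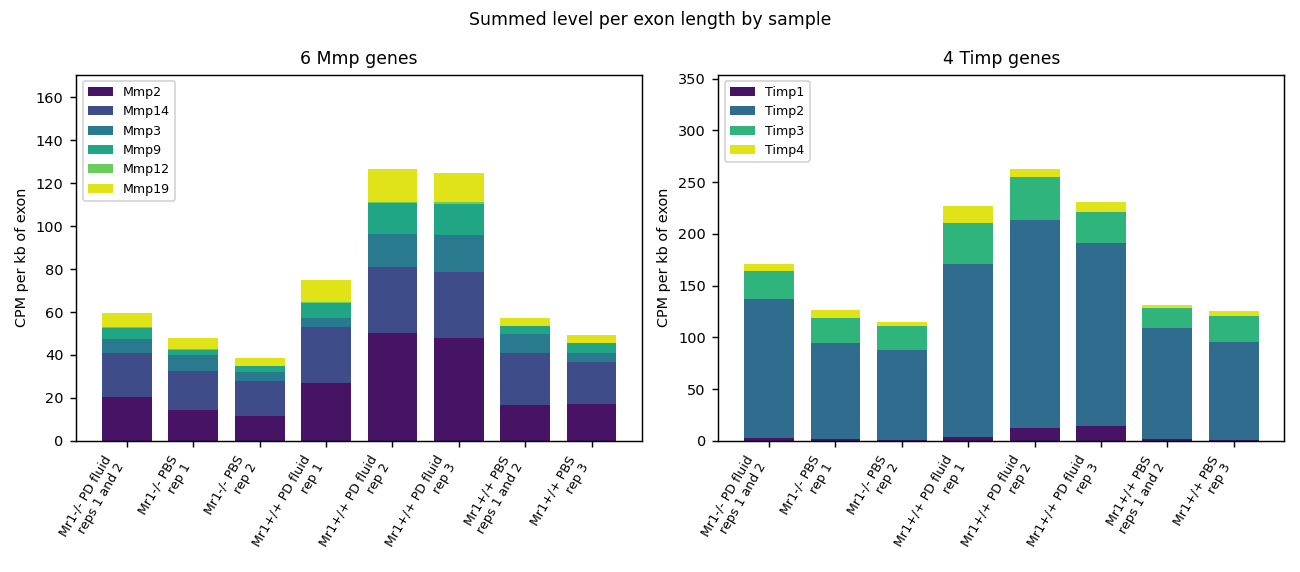
CPM per kb of exon in each of the 8 samples, stacked by gene, for the 6 Mmp genes (left) and the 4 Timp genes (right). Timp2 fills 73.1% to 81.5% of every Timp bar, and the Mmp bars are highest in Mr1+/+ PD fluid replicates 2 and 3.

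In Mr1-/- mice, 1 PD fluid sample was set against 2 PBS samples, and the spread of the lone sample was assumed to be that of the other groups. EdgeR called 0 of the 10 genes and 0% of the 15385 tested. Timp2 and Mmp9 alone of the 10 had an unadjusted p under 0.05, as had 231 of all genes (1.5%). DESeq2 called 0 of the 10 and 11 genes in all, and gave no adjusted p for 5 of the 10. All 10 log2 fold changes were above 0, as were 46.7% over all tested genes, with a median of 0.60 against -0.015 over all tested genes. The PD fluid sample was above both PBS samples for 8 of the 10 genes, an arrangement that 28.7% of all tested genes showed. It was below both for none of the 10 and for 27.9% of all tested genes. The 10 genes were read in the same samples, so that their directions are not independent of each other.

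Timp2 had 523 CPM in the Mr1-/- PD fluid sample, against 359 and 338 CPM in the PBS samples. Its log2 fold change was 0.58 (SE 0.20, adjusted p = 1). Mmp9 had 18.2 CPM in the PD fluid sample, against 8.43 and 9.54 CPM in PBS, a log2 fold change of 1.02 (SE 0.40). Mmp2 had 69.2 CPM, against 48.8 and 39.2 CPM (0.65, SE 0.34), and Mmp19 had 23.4 CPM, against 18.2 and 12.6 CPM (0.61, SE 0.30). For these 4 genes the PD fluid sample was the highest of the 3 Mr1-/- samples, without passing the test. Mmp12 had 2.37 CPM, against 1.56 and 1.28 CPM, and Timp1 had 2.24 CPM, against 1.77 and 0.812 CPM, with SEs of 0.73 and 0.86 that exceed or match their log2 fold changes of 0.73 and 0.79. Timp3 (0.24) and Mmp14 (0.23) also lay above both PBS samples. Timp4, at 36.0 CPM against 46.0 and 24.4 CPM, and Mmp3, at 11.8 CPM against 13.3 and 6.97 CPM, lay between the PBS samples. Without Mr1-/- PBS replicate 2 the log2 fold changes of Timp4 and Mmp3 were -0.36 and -0.17.

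**Figure D4:**
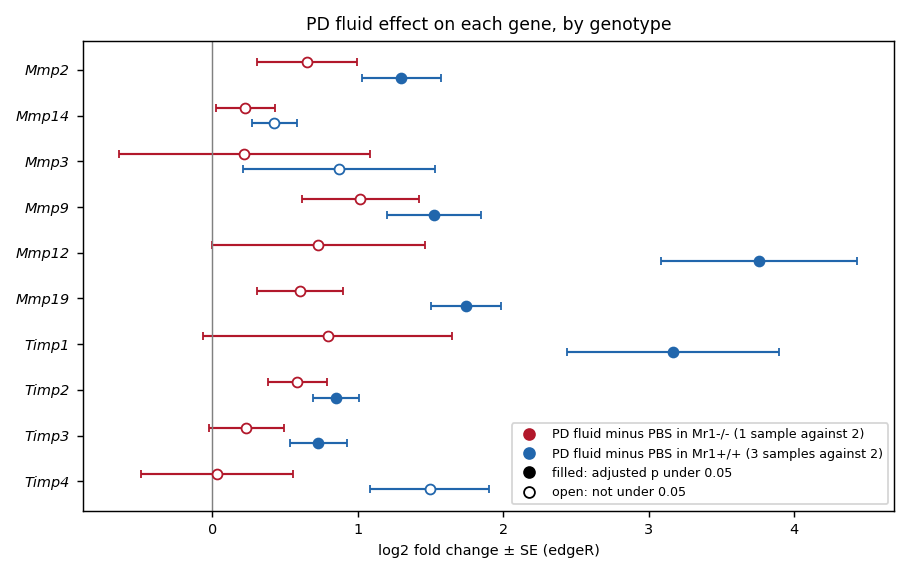
Log2 fold change with its SE for PD fluid minus PBS, by genotype, where filled points have an edgeR adjusted p under 0.05. All 20 points lie above 0, and the value in Mr1+/+ exceeds that in Mr1-/- for each of the 10 genes, a difference that passed the interaction test for none of them.

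Whether the response to PD fluid differed between genotypes was tested as an interaction. EdgeR called 0 of the 10 genes and 0% of all tested genes, with 2 of the 10 and 2037 of all genes (13.2%) at an unadjusted p under 0.05. By DESeq2, 0 of the 10 and 488 in all were called, with no adjusted p for Mmp12 and Timp1. All 10 interaction terms were below 0, a smaller estimated rise in Mr1-/-, while 50.8% of all tested genes had a term above 0. Their median was -0.65, against 0.013 over all tested genes. Every term uses the same samples, with the lone Mr1-/- PD fluid sample among them, so that the signs are not independent of each other. The terms furthest from 0 relative to their error were those of Mmp12 (-3.03, SE 1.02) and Mmp19 (-1.14, SE 0.39), both with an adjusted p of 0.311. With the 10 libraries kept apart these terms were -3.09 (adjusted p = 0.0485) and -1.17 (adjusted p = 0.0350). That fit understates the spread if a near-identical pair is 1 sample. The terms of Timp1 (-2.37, SE 1.15) and Timp4 (-1.46, SE 0.67) had adjusted p of 0.416 and 0.409, and those of the other 6 genes lay between -0.65 and -0.20.

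Under PD fluid, the Mr1-/- sample was below all 3 Mr1+/+ samples for 8 of the 10 genes, an arrangement that 33.9% of all tested genes showed, and above all 3 for none, against 36% of all tested genes. All 10 differences were below 0, while 50% of all tested genes had one above 0. EdgeR called 0 of the 10 genes, with 4 at an unadjusted p under 0.05 (Mmp2, Mmp14, Mmp9 and Mmp19), against 0.013% called of all tested genes (0.0065% in each direction) and 19.1% at an unadjusted p under 0.05. This comparison shares the Mr1+/+ PD fluid samples with the first and the lone Mr1-/- PD fluid sample with the second, so that its direction is not independent of theirs. Mmp19 had 23.4 CPM in the Mr1-/- sample, against 35.8, 52.7 and 48.1 CPM in Mr1+/+, a log2 difference of -0.96 (SE 0.30, adjusted p = 0.171). Mmp9 had 18.2 CPM, against 24.4, 51.4 and 50.5 CPM (-1.21, SE 0.41, adjusted p = 0.189). Mmp2 had 69.2 CPM, against 91.3, 169 and 162 CPM (-1.03, SE 0.35, adjusted p = 0.189). Timp1 had 2.24 CPM, against 3.16, 11.1 and 13.0 CPM, the largest difference of the 10 and one of the least precise (-2.01, SE 0.90). Mmp12 and Mmp3 lay within the range of the Mr1+/+ samples. DESeq2 called 3 of the 10 lower, Mmp2, Mmp9 and Mmp19, and 1036 genes in all (6.73%), with no adjusted p for Mmp12 and Timp1. With the 10 libraries kept apart edgeR called 6 lower, Mmp2, Mmp14, Mmp9, Mmp19, Timp1 and Timp2, beside 22.9% of all genes. In that fit the near-identical libraries of Mr1-/- PD fluid count as separate samples, which understates the spread if they are 1 sample. Cell type markers differed in the same comparison. The neutrophil markers summed to 39.7 CPM in the Mr1-/- sample, against 47.7 to 164 CPM in Mr1+/+, with a median log2 difference of -4.86 over 11 tested. They did not move alike. Cxcr2 was higher, at 11.4 CPM in the Mr1-/- sample against 2.79, 7.11 and 7.84 CPM in Mr1+/+. Csf3r, at 23.7 CPM, lay within the Mr1+/+ samples (21.6, 31.7 and 28.5 CPM), as did Ly6g. Cxcr2 and Csf3r made up most of the sum in the Mr1-/- sample. The adipocyte markers summed to 7010 CPM, against 12300 to 18000 CPM, the fibroblast markers to 2530 CPM, against 3700 to 4650 CPM, and the macrophage markers to 2710 CPM, against 3030 to 4120 CPM. The B cell markers summed to 2190 CPM, against 992 to 1130 CPM, and the liver markers to 133 CPM, against 1.01 to 2.54 CPM. Of these lists, 1 liver marker was called, and the part of these cells in the differences was not tested.

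Under PBS, edgeR called 0 of the 10 genes between genotypes, as did DESeq2, with 1 at an unadjusted p under 0.05. Over all tested genes edgeR called 0.013%, 0.0065% in each direction, and 8.64% had an unadjusted p under 0.05 in edgeR. DESeq2 called 211 genes in all (1.37%). The 1 gene of the 10 with an unadjusted p under 0.05 was Mmp12, at 1.56 and 1.28 CPM in Mr1-/- against 0.308 and 0.421 CPM in Mr1+/+. Its log2 difference was 1.98 (SE 0.68, adjusted p = 0.566), from 23 and 19 counts in the Mr1-/- libraries. It was the only member of the 10 with both Mr1-/- samples above both Mr1+/+ samples, an arrangement that 20.5% of all tested genes showed. Mmp2, Mmp14, Mmp9 and Timp2 had both Mr1-/- samples below, as 18.1% of all tested genes had. The largest of these differences was that of Mmp9, at 8.43 and 9.54 CPM in Mr1-/- against 14.2 and 15.1 CPM in Mr1+/+ (-0.70, SE 0.34). Of the 10 differences 5 were above 0, against 48.2% over all tested genes. Their median was -0.054, against -0.016 over all tested genes.

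Some members share sequence with genes on the other strand. In GENCODE M21, 22.3% of the exon bases of Mmp19 overlap exons of Tmem198b, and 21.3% of those of Timp3 overlap exons of Syn3. Overlaps were 2.17% for Mmp12 with Mmp1b and 1.53% for Timp4 with Syn2, while Timp1 lies inside Syn1 with no shared exon base. The labels' protocols name no step that marks strand, so that reads there may belong to either gene. Tmem198b had 116 to 186 counts per library, Syn3 9 to 35, Syn2 77 to 199 and Mmp1b 0.

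Of the 17 other mouse Mmp genes, 12 were tested and edgeR called none after PD fluid in Mr1+/+, with a median log2 fold change of 0.25. Those with the smallest p were Mmp23, at 30.5 ± 3.52 CPM (SD, n = 3) in PD fluid and 18.3 ± 1.62 CPM (SD, n = 2) in PBS (adjusted p = 0.0522), and Mmp28, at 53.3 ± 9.74 CPM (SD, n = 3) in PD fluid and 25.5 ± 9.15 CPM (SD, n = 2) in PBS (adjusted p = 0.0905). Of 21 tested genes for the activation and restraint of Mmp proteins, 4 rose and none fell, against 8.49% higher and 6.37% lower of all tested genes. They were the plasminogen activator Plat (log2 fold change 1.23, SE 0.20), the proprotein convertase Pcsk6 (1.16, SE 0.27), the neutrophil elastase gene Elane (2.59, SE 0.60) and the mast cell chymase gene Mcpt4 (1.91, SE 0.51). Furin, the convertase that processes Mmp14, was at 0.20 (SE 0.19), and Reck, a membrane-anchored Mmp inhibitor, at 0.69 (SE 0.20, adjusted p = 0.0552). Furin and Reck were chosen after their values were seen. The median of this list was 0.81.

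Of 24 Adam and Adamts proteases, 3 rose and 1 fell, counts near the 8.49% higher and 6.37% lower of all tested genes, and the median log2 fold change was 0.37. Adam15, a membrane-bound disintegrin protease, rose by 1.23 (SE 0.17), the procollagen N-proteinase Adamts2 by 1.55 (SE 0.34) and the proteoglycan-cutting Adamts9 by 2.06 (SE 0.51), while Adamts6 fell by 1.349 (SE 0.22). Adamts6 had 9.11 ± 1.81 CPM in PD fluid (SD, n = 3) and 23.2 ± 3.01 CPM in PBS (SD, n = 2). Of 8 genes for other routes of collagen degradation, 4 rose: the lysosomal cathepsins Ctsl (0.99, SE 0.18), Ctsb (0.82, SE 0.21) and Ctsk (1.004, SE 0.27), and the collagen uptake receptor Mrc2 (0.99, SE 0.21). Of 12 tested matrix substrates, 9 rose, with a median of 1.31. Among them, Col1a2 rose by 1.32 (SE 0.21), Col1a1 by 1.32 (SE 0.22), the proteoglycan Dcn by 1.41 (SE 0.25) and the basement membrane chain Col4a2 by 1.18 (SE 0.22). In Mr1-/-, where edgeR called 0% of all tested genes, none of these lists had a called gene. The medians of the lists there were 0.19, 0.38, 0.16, 0.23 and 0.58 in the order given here.

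Markers of several cell types moved with PD fluid in Mr1+/+, where 8.49% of all tested genes were called higher and 6.37% lower. In Mr1+/+, 8 of 9 fibroblast markers were called higher after PD fluid and their sum was 3700 to 4650 CPM in PD fluid and 1240 to 1520 CPM in PBS. Of 8 adipocyte markers 7 were called higher (12300 to 18000 CPM in PD fluid and 4050 to 4840 CPM in PBS). Of 13 macrophage markers 6 were called higher (3030 to 4120 and 2390 to 2560 CPM), and of 6 endothelial markers 4 (1470 to 1760 and 982 to 1020 CPM). Of 11 tested neutrophil markers 3 were called higher, and the 12 listed summed to 47.7 to 164 CPM in PD fluid and 37.0 to 52.8 CPM in PBS. The neutrophil gene Ly6g was at 0 to 0.259 CPM in every sample. Cxcr2 of the same list went the other way in Mr1+/+, at 2.79, 7.11 and 7.84 CPM in PD fluid against 18.9 and 8.07 CPM in PBS. Of 5 tested erythroid markers 3 were called higher (84.7 to 240 CPM in PD fluid and 18.0 to 35.7 CPM in PBS). All 6 B cell markers were called lower (992 to 1130 and 1810 to 2870 CPM). None of 7 pancreatic acinar markers was called, and their sum was 140 to 3760 CPM in PD fluid and 485 to 25400 CPM in PBS. None of 7 mesothelial markers was called either (159 to 416 CPM in PD fluid and 164 to 421 CPM in PBS). In the Mr1-/- PD fluid sample the fibroblast markers summed to 2530 CPM, against 1190 to 1660 CPM in Mr1-/- PBS, and the adipocyte markers to 7010 CPM, against 5930 to 8240 CPM. The macrophage markers summed to 2710 CPM there, against 2110 to 2210 CPM, the neutrophil markers to 39.7 CPM, against 26.8 to 40.7 CPM, and the endothelial markers to 1050 CPM, against 893 to 1000 CPM. The pancreatic acinar markers summed to 5110 CPM, against 265 to 646 CPM, and the erythroid markers to 51.7 CPM, against 14.1 to 20.2 CPM. None of these markers was called in Mr1-/-, where edgeR called 0% of all 15385 tested genes. No fibroblast, adipocyte, macrophage or endothelial marker listed was at 0 in a group. Some lists share genes: the fibroblast markers Col1a1, Col3a1 and Dcn are also matrix substrates above. The neutrophil marker Elane is also in the list for activation and restraint of Mmp proteins. The part of these cell types in the Mmp and Timp results was not tested.

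The genes whose levels ran most closely with each called member were ranked by Pearson's r of log2 CPM over the 8 samples. These values describe 8 samples that fall into 4 groups, of which Mr1+/+ PD fluid stands apart, and carry no test. For Timp1 they were Anxa8 (0.994), Clec10a (0.985) and Tead4 (0.979). For Mmp12 they were Retn (0.978), Chpt1 (0.975) and Aldh1a7 (0.974). For Mmp9 they were Nfil3 (0.988), G6pdx (0.988) and Ctsb (0.985). For Mmp2 they were Plod3, Selenon and Rbms2 (0.991 to 0.992), and for Mmp19 they were Fstl1, Ehd2 and Adcy4 (0.993 to 0.994). Timp2 ran most closely with C1qtnf1, Rab7b and Osr1 (0.986 to 0.991), and Timp3 with Ptprm, Gab1 and Lpin1 (0.963 to 0.973).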

How the data were processed

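RNA was measured by poly-A selected, random-primed sequencing of peritoneum, per the labels' protocols. The authors deposited a table of raw read counts by gene symbol, without normalization. The submitters' processing notes name mm10. Which aligner, counter and strand setting were used was not given in the sources used here. PCR copies cannot be told from separate molecules. The 21899 rows gave 21877 symbols after rows sharing a symbol were summed, and 97.0% of symbols matched GENCODE M21, the source of coordinates and exon lengths. Promoters are from RefSeq.

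The libraries of a pair within a group were summed where their chi-square per gene (genes with at least 10 counts in the pair) was under 3. Genes were kept with filterByExpr by group, which left 15385. Counts were scaled by TMM and tested with edgeR 4.0.16 (R 4.3.3), by robust quasi-likelihood F tests on 4 group means with 4 residual degrees of freedom, for 5 contrasts, with Benjamini-Hochberg adjustment over all tested genes and a threshold of 0.05. Each SE is the size of the log2 fold change over the square root of F. All 10 members are named. Of the other lists, up to 4 called genes are named, or the 2 with the smallest p. Likeness used genes with a mean of at least 5 CPM and a prior count of 2. Alternatives were DESeq2 1.42.0, other scaling, no filter, separate libraries, a replicate block, only the groups compared and left-out libraries. The members and lists were chosen with earlier results of these data known.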

Additional observations from a re-analysis of the deposited data

How the results depend on the processing

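All 10 log2 fold changes after PD fluid in Mr1+/+, and all 10 genotype differences under PD fluid and interaction terms, kept their sign under every alternative. In Mr1+/+, 9 of the 10 genes were called with separate libraries, 8 with DESeq2 and 8 with only the groups compared, 3 without Mr1+/+ PBS replicates 1 and 2, and 0 to 7 with single libraries left out. For all genes these counts were 5549, 3845, 2505 and 1525, and 0 to 2751, against 2286. For genotype under PD fluid, 6 genes were called with separate libraries, 5 with the replicate block on them and 3 with DESeq2, against 0, while all-gene counts were 3400, 2428 and 1036, then 7 without a filter, 561 with only the groups compared, 42 without Mr1+/+ PBS replicates 1 and 2 and 0 to 33 with single libraries left out, against 2. For genotype under PBS, the all-gene counts were 50, 3, 211, 6, 0 and 665 for the same settings and 1 to 3 with single libraries left out, against 2. For PD fluid in Mr1-/-, none of the 10 genes was called with separate libraries or DESeq2. Over all tested genes the counts there were 2 with separate libraries and 11 with DESeq2, against 0. For the interaction, 2 of the 10 genes were called with separate libraries and 2 with the replicate block, against 0, and for all genes 1490 with separate libraries, 1915 with the block, 488 with DESeq2, 311 without Mr1+/+ PBS replicates 1 and 2 and 0 to 1 with single libraries left out. With the replicate block in Mr1+/+, 9 of the 10 genes and 5537 of all genes were called. Taken as deviations from their group means, same-numbered libraries correlated above 0.1 in 1 of 13 cases, with r between -0.13 and 0.15. In a group of 2 libraries these deviations mirror each other, so this check cannot decide whether the replicate numbers pair the samples. The interaction has no fit with only the groups compared, since it uses all 4. The causes were not tested.

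Signs turned in differences that passed no test. Leaving out single libraries gave a range of -0.17 to 0.77 for Mmp3 and -0.36 to 0.56 for Timp4 after PD fluid in Mr1-/-. For the genotype differences under PBS it gave -0.30 to 0.81 for Timp1 (-0.03 without Mr1+/+ PBS replicate 3), -0.11 to 0.42 for Mmp19 and -0.79 to 0.15 for Mmp3. Without Mr1+/+ PBS replicates 1 and 2 those of Mmp3 and Timp3 under PBS were 0.34 and -0.13. With the longest transcript as the length, 20 of 40 group levels per kb moved by more than 1 SD or the counting error. Timp1 and Mmp12 had as few as 9 and 2 counts in a library, which limits the precision of their folds.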

Other observations

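Transcripts of other metalloproteinases appeared in the library with the highest intestinal and pancreatic marker sums. Mmp10, Mmp13 and Mmp7 had 44, 28 and 32 counts in Mr1+/+ PBS replicate 3, against 0 to 3, 0 to 2 and 0 to 6 counts in the other 9 libraries. Mmp15, a membrane-bound family member, had 931 counts there, against 314 to 634 in the others. The intestinal mucin Muc2 was at 663 CPM in that library and at 0.408 to 1.83 CPM in the other samples. Mmp8, the neutrophil collagenase, was at 0 there, with 12, 30 and 19 counts in the Mr1+/+ PD fluid libraries 12 in each of the other Mr1+/+ PBS libraries and 0 to 4 in the Mr1-/- libraries. Mmp1a and Mmp1b were at 0 in all 10 libraries. These genes were chosen after their values were seen, and the source of the transcripts was not tested.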
